A study of Mus musculus with 18 samples.

Results

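Phox2a, Tbx20, Onecut1, Onecut2, Foxp1, Foxp2, Foxp4 and Etv1 encode transcription factors listed here for motor neurons of the spinal cord or brainstem. Not all of them mark a single column, pool or motor nucleus. The 8 genes were followed through every probe set that carries one of them as its only gene symbol, a rule that uses no measured value. Foxp1 and Foxp2 lie on mouse chromosome 6 and Tbx20 and Onecut1 on chromosome 9, whereas Phox2a lies on chromosome 7, Foxp4 on chromosome 17, Onecut2 on chromosome 18 and Etv1 on chromosome 12. 7 of the 8 genes had such probe sets, 26 in all out of 45037 tested, and the 7 genes stand among 18193 genes measured in the same way. Etv1, an ETS factor of motor pools and proprioceptive sensory neurons, has 3 probe sets that all carry a second symbol, so no value is given for it. Of the 26 probe sets, 19 reached a log2 signal of 4, taken here as the background level, on at least 1 array, and 7 stayed under it on all 18 arrays. The probe sets of a gene are lettered by their mean signal over the arrays, A being the brightest, and each identifier is given once.

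The samples came from HBG3 cells, a mouse embryonic stem (ES) cell line that was differentiated towards spinal motor neurons with retinoic acid (RA) and an agonist of hedgehog signalling. Amplified RNA was hybridized to Affymetrix mouse expression arrays, which report a log2 signal per probe set. There were 3 arrays of undifferentiated ES cells (day 0), 4 of day 2 embryoid bodies, 2 of day 2 embryoid bodies given RA 8 h before collection, 3 of day 3 neural precursors, 3 of motor neuron progenitors (day 4) and 3 of postmitotic motor neurons (day 7). RA is the only agent that the labels give for the 8 h arrays, and their reference, the day 2 arrays, is 8 h younger, so RA and the added hours cannot be told apart. All cells are of 1 line and the embryoid bodies were not sorted, so that more cells of a type and more RNA per cell cannot be told apart in any value below.

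Motor neurons of the spinal cord are born as one class and then divide into columns along the body axis, each with its own muscles or ganglia as targets. Hox proteins set the column, and Foxp1 acts with them in the lateral column that innervates the limbs and in the preganglionic column, whereas Lhx3 and Lhx4 mark the median column that innervates axial muscle. Onecut factors are active in newborn motor neurons, and Phox2a and Tbx20 belong to motor neurons of the brainstem, Phox2a in the oculomotor and trochlear nuclei and Tbx20 in the branchiomotor and visceromotor neurons of the hindbrain.

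The labelled stages were checked against marker genes. All 5 ES cell markers fell by day 7 relative to day 0, and 5 of 8 motor neuron markers rose (Mnx1, Isl1, Isl2, Lhx3 and Slc18a3, the vesicular acetylcholine transporter). In that comparison 3 of 8 spinal interneuron markers (Gata3, Tal1 and Sim1) and 3 of 4 glial markers rose as well. By the rule given below, 16.4% of all genes were called there as lower and 17% as higher. Chat, the enzyme that makes acetylcholine, was under background on all day 7 arrays. Relative to day 4, where 10.9% of all genes were called as higher at day 7, 3 of the 4 glial markers rose. Sox10 led them (8.99 ± 2.09 at day 7, 2.25 ± 0.03 at day 4 on the log2 scale, SD, n = 3 each, limma adjusted p 1.6e-05). Of the 8 spinal interneuron markers 1 rose relative to day 4, Gata3, which is also listed here for cranial and autonomic neurons (6.47 ± 0.70 at day 7, 2.37 ± 0.17 at day 4, SD, n = 3 each, adjusted p 1.5e-05). Sox14, En1, Evx1 and Lhx5 of the interneuron list were under background on all day 7 arrays. The 5 feeder fibroblast markers averaged 5.23 to 6.81 per array at day 0 and 3.87 to 4.53 at day 2. Among them, Col1a1 was at 9.98 ± 1.45 at day 0 (SD, n = 3) and 5.19 ± 0.30 at day 2 (n = 4, limma adjusted p 0.0014). At day 7 relative to day 0, 3 of the 5 fell and Dcn was called as higher through a fainter probe set. The part of feeder cells in any day 0 value, and of glia and other neurons in any day 7 value, was not tested.

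The members fell into 3 kinds of profile. On their brightest probe sets, Onecut2 and Foxp2 had their highest means at days 4 and 7, Foxp1 and Foxp4 were well above background from day 0 and lowest at day 7, and Phox2a, Tbx20 and Onecut1 stayed near background at most stages. A gene was called where at least 1 of its probe sets changed at least 2-fold with an adjusted p under 0.01 in a limma fit across all probe sets and arrays. No member was called after 8 h of RA relative to day 2, where 0.434% of all genes were called, nor at day 2 relative to day 0 (4.47% of all genes) or at day 3 relative to day 2 (7.71% of all genes). Before adjustment, 6, 2 and 4 of the 26 probe sets had limma p-values under 0.05 in these comparisons. Probe sets of 1 gene are not independent, and the share over all probe sets was not counted, so nothing is read from these numbers. At day 4 relative to day 3, 1 of 7 members was called, Onecut2, which rose, where 1.42% of all genes were called and 0.627% were called as higher. 2 members were called at day 7 relative to day 4, Foxp2 upwards and Foxp1 downwards, where 19% of all genes were called, 10.9% as higher and 8.17% as lower. Over the whole course, 3 of 7 members were called at day 7 relative to day 0 (Onecut2 and Foxp2 higher, Foxp1 lower), where 33.1% of all genes were called, 17% as higher and 16.4% as lower.

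**Figure D1:**
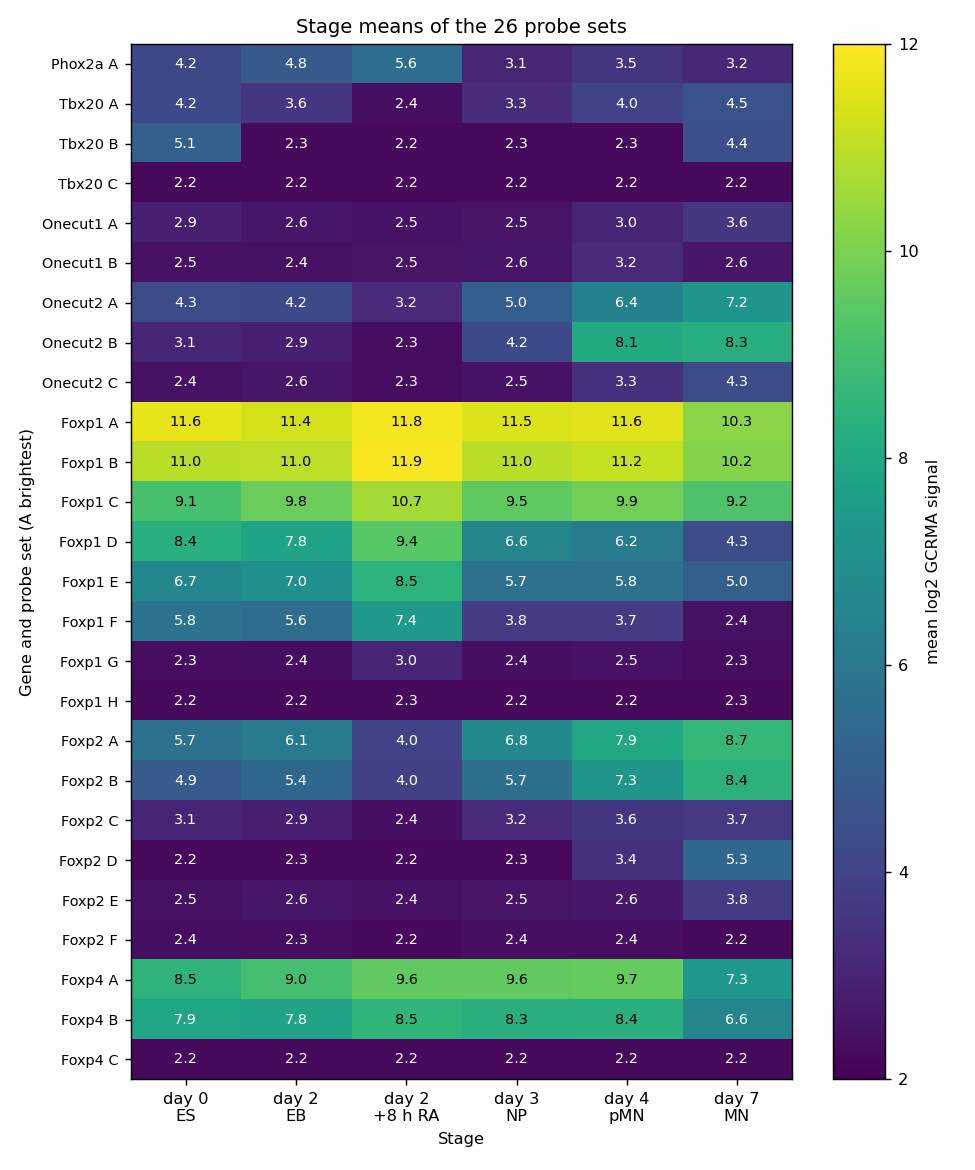
Mean log2 GCRMA signal of the 26 probe sets of the 7 measured members (rows, brightest probe set of a gene on top) at the 6 stages (columns, in order of time). Onecut2 and Foxp2 are brightest at days 4 and 7, Foxp1 is bright at every stage on its upper 3 probe sets, and Onecut1 stays under the background level of 4 throughout.

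Onecut2, a factor with a cut domain and a homeodomain that is active in newborn neurons, gave the largest change among the members in a single step. On its probe set B (1460044_at) the log2 signal was 3.32, 3.33 and 2.51 at day 0, 3.30, 3.33, 2.65 and 2.30 at day 2, 2.26 and 2.42 after 8 h of RA, 4.22, 4.28 and 4.19 at day 3, 8.05, 8.96 and 7.34 at day 4, and 7.99, 8.59 and 8.32 at day 7. The signal was under background on all arrays up to and including the RA arrays, just over it at day 3, and high from day 4 on, with no overlap between day 4 and day 3. The mean was 8.12 ± 0.81 at day 4 and 4.23 ± 0.05 at day 3 (SD, n = 3 each), a rise of 3.88 ± 0.38 on the log2 scale (limma standard error) or 14.8-fold (adjusted p 1.2e-04). Arrays with the same replicate number at day 3 and day 4 deviate together, and with the replicate number as a block the adjusted p was 6.7e-04 in a fit of all arrays and 0.20 in a fit of these 6 arrays, which called no gene at all. With the 6 arrays of the 2 stages alone and no block, the adjusted p was 0.096.

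The earlier step of Onecut2 was smaller. At day 3 probe set B lay above day 2 without overlap, and since all day 2 arrays were under background the difference is a bound of at least 1.17-fold, which was not called (adjusted p 0.036). At day 7 probe set B held the level of day 4, with a difference of 0.18 ± 0.38 between the stages. Relative to day 0, where all 3 arrays of probe set B were under background, its day 7 level was at least 19.7-fold higher (8.30 ± 0.30 at day 7, 3.05 ± 0.47 at day 0, adjusted p 2.1e-07). In the order of levels on probe set B, day 7 and day 4 came first and did not differ beyond their spread. Day 3 followed, and the day 0, day 2 and RA arrays of this probe set were under background.

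The other probe sets of Onecut2 differed less in that step. On probe set A (1440005_at), the brightest on average, the signal was 7.06, 7.87 and 6.80 at day 7, 7.35, 6.31 and 5.53 at day 4 and 5.64, 5.33 and 3.95 at day 3, so that the arrays of day 4 and day 3 overlapped. Its difference between day 4 and day 3 was 1.42 ± 0.94 (adjusted p 0.93), and in same-numbered pairs of arrays it was 1.70, 0.98 and 1.58. Unlike probe set B, probe set A was over background on some early arrays. It was at 5.36, 2.42 and 5.14 at day 0 and 5.47, 5.57, 2.86 and 2.86 at day 2. After 8 h of RA it was at 3.39 and 3.05. Its difference between day 7 and day 0 was 2.94 ± 0.94 and was not called (adjusted p 0.030). The faint probe set C (1444980_at) was called at day 7 relative to day 0 (4.30 ± 0.83 at day 7, 2.43 ± 0.02 at day 0, adjusted p 0.0016), at least 1.23-fold over the background level. Onecut1, also known as a regulator of liver and pancreas, had both probe sets under background on every array. Its values on probe set A (1450252_at) were 3.49, 3.47 and 3.77 at day 7 and 3.51, 2.43 and 2.67 at day 0, so no fold is given. Onecut3, the last gene of the family, was also under background on all 18 arrays.

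**Figure D2:**
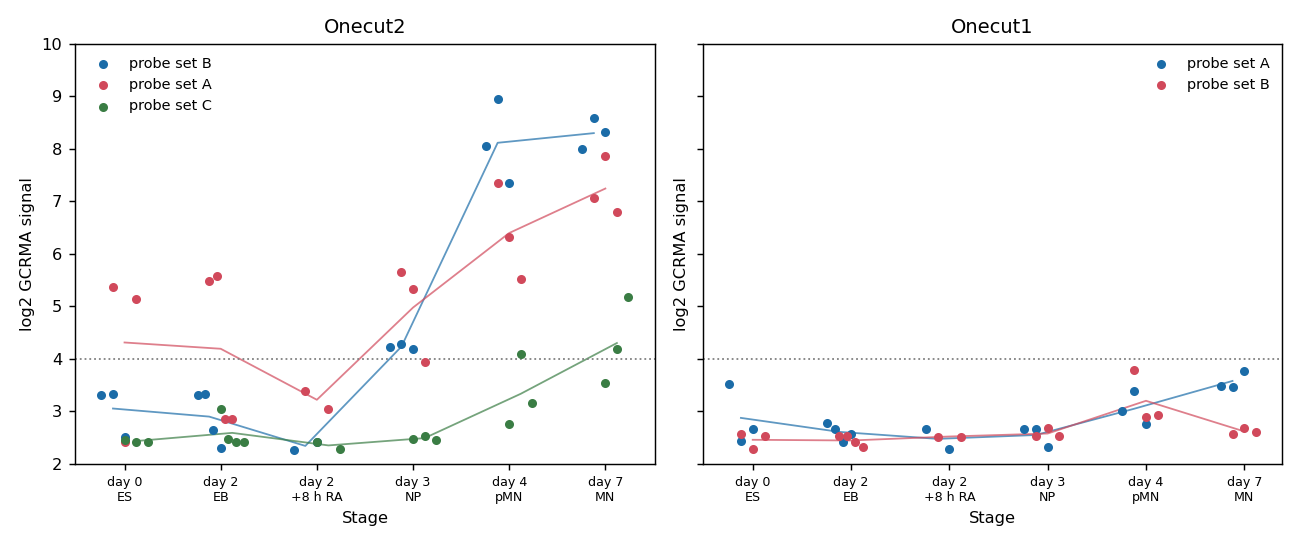
Log2 GCRMA signal (vertical axis) of the Onecut2 and Onecut1 probe sets on each array (points) by stage (horizontal axis), with lines through the stage means and a dotted line at the background level of 4. The 3 day 4 arrays of Onecut2 probe set B lie between 7.34 and 8.96 and all 3 day 3 arrays between 4.19 and 4.28, while Onecut1 stays under 4.

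Foxp2, a forkhead factor known for its part in speech and, in the spinal cord, expressed in ventral interneurons as well as motor neurons, ended at a high level on 2 probe sets and showed wide scatter before that. On probe set A (1438232_at), its brightest, the log2 signal was 6.95, 3.31 and 6.88 at day 0, 7.64, 7.61, 3.53 and 5.71 at day 2, 3.82 and 4.17 after 8 h of RA, 7.83, 7.33 and 5.12 at day 3, 9.18, 8.42 and 6.22 at day 4, and 8.90, 8.80 and 8.33 at day 7. The 3 day 7 arrays agree closely and lie above every array of days 0, 2 and 3, but within the range of day 4. The mean was 8.68 ± 0.30 at day 7 and 5.71 ± 2.08 at day 0 (SD, n = 3 each), a difference of 2.97 ± 1.25 that was not called (adjusted p 0.10). The neighbouring probe set B (1438231_at) was at 8.38, 8.50 and 8.43 at day 7 and 6.43, 2.88 and 5.43 at day 0, a difference of 3.52 ± 0.97 that missed the threshold (adjusted p 0.013).

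The call of Foxp2 rests on fainter probe sets. On probe set D (1440108_at) the signal was 5.45, 4.82 and 5.75 at day 7 and 2.57, 4.29 and 3.25 at day 4, without overlap, and stayed at or near the lowest values of the arrays at all earlier stages. The difference between day 7 and day 4 was 1.97 ± 0.32 (adjusted p 6.1e-04), and relative to day 0 the day 7 level was at least 2.54-fold higher (adjusted p 6.1e-06). In the fit of the 6 arrays of days 7 and 4 alone its adjusted p was 0.11, and in the fit of all arrays with a replicate block it was 0.011. On probe set E (1422014_at) the day 7 arrays were at 3.74, 4.39 and 3.22, and only 1 of them was over background, so its call (1.16 ± 0.23 relative to day 4, adjusted p 0.0023) is one of values near the floor and was lost when values under 4 were raised to 4.

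The scatter of Foxp2 probe set A within stages was shared with some probe sets of other members. The arrays on which probe set A was low were replicate 2 of day 0, replicates 3 and 4 of day 2, replicate 3 of day 3 and replicate 3 of day 4, and Onecut2 probe set A was low on the same arrays. Not every probe set of these genes followed it. On replicate 1 of day 4, Foxp2 probe sets A (9.18) and C (5.07) were highest of that stage, whereas D was lowest (2.57). On the same array Onecut2 probe set A was highest (7.35) and C lowest (2.75). Taken as deviations from the stage means over the 18 arrays, Foxp2 probe set A and Onecut2 probe set A had a Pearson correlation of 0.92, Foxp2 probe sets A and B one of 0.96, and Foxp2 probe set A and Tbx20 probe set A (1425158_at) one of 0.64. All of these values share the arrays and their normalization. Of 26013 probe sets that reached background on any array, 706 (2.71%) correlated over 0.8 with Foxp2 probe set A in this way and 203 under -0.8, so the scatter extends to a part of the transcriptome. Within pairs of the same number, the difference of Foxp2 probe set A between day 4 and day 3 was 1.34, 1.09 and 1.10, and that of probe set B was 1.26, 1.63 and 1.86. After RA, both arrays of Foxp2 probe set A lay inside the range of day 2 (3.99 ± 0.25 after RA, n = 2, and 6.12 ± 1.95 at day 2, n = 4), near its lowest array, replicate 3.

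**Figure D3:**
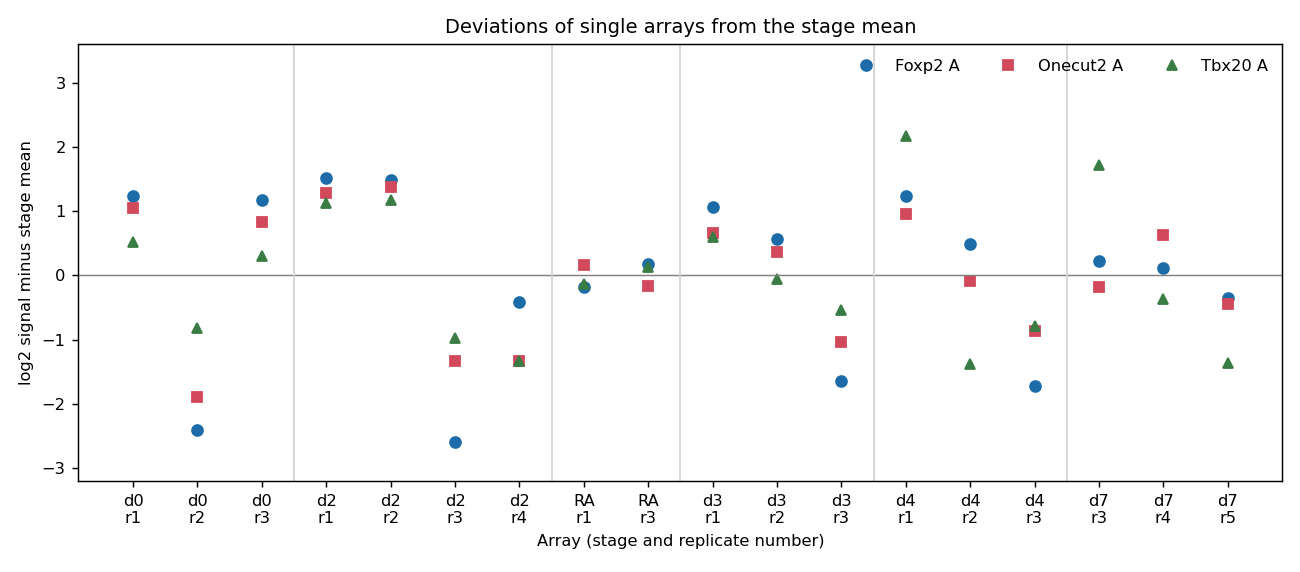
Deviation of the log2 signal from its stage mean (vertical axis) on each of the 18 arrays (horizontal axis, stage and replicate number, in order of time) for Foxp2 probe set A, Onecut2 probe set A and Tbx20 probe set A. The 3 probe sets lie on the same side of 0 on all arrays of days 0 and 2, with Foxp2 and Onecut2 low together on replicate 2 of day 0 and replicate 3 of days 2, 3 and 4.

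Foxp1, the forkhead factor that works with Hox proteins in the limb-innervating and preganglionic columns, was bright at every stage on 3 probe sets, and on the brightest of them it was lowest at day 7. This probe set A (1435222_at) was at 11.89, 11.77 and 11.18 at day 0, 11.94, 11.82, 11.25 and 10.43 at day 2, 11.81 and 11.87 after 8 h of RA, 11.58, 11.71 and 11.17 at day 3, 11.76, 11.82 and 11.12 at day 4, and 10.37, 10.06 and 10.34 at day 7. The day 7 arrays lay below every other array, the nearest being the lowest array of day 2. The mean was 10.26 ± 0.17 at day 7 and 11.61 ± 0.38 at day 0 (SD, n = 3 each), which is 2.56-fold lower (log2 difference -1.35 ± 0.35, adjusted p 0.0085). This call was lost in 9 of 17 alternatives, among them 5 of the 6 fits without 1 array and the fit of all arrays with a replicate block (-0.71, adjusted p 0.029). On this probe set the difference from day 4 was -1.31 ± 0.35 and missed the threshold (adjusted p 0.016).

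The call of Foxp1 at day 7 relative to day 4 came from probe set B (1455242_at) alone. Its log2 signal was 10.29, 10.21 and 9.96 at day 7 and 10.97, 11.59 and 10.98 at day 4, without overlap, a difference of -1.03 ± 0.21 or 2.04-fold (adjusted p 0.0034), just past the fold threshold. Leaving out 1 array ended this call in 3 of 6 cases, namely without replicate 2 of day 4 (-0.82, adjusted p 0.017), without replicate 4 of day 7 (-1.06, adjusted p 0.010) and without replicate 5 of day 7 (-0.93, adjusted p 0.017).

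The probe sets of Foxp1 did not share one profile. Probe sets D (1421142_s_at), E (1421140_a_at) and F (1421141_a_at) list one source sequence in the platform annotation, and probe sets A, B and C (1435221_at) another. The signal of probe set D was 8.17, 8.60 and 8.30 at day 0, 7.63, 8.23, 7.78 and 7.68 at day 2, 8.93 and 9.89 after RA, 5.60, 6.68 and 7.38 at day 3, 4.39, 7.09 and 7.22 at day 4, and 3.91, 4.06 and 5.06 at day 7. The day 7 arrays lay below all arrays of days 0, 2 and 3, and overlapped with day 4 through replicate 1 of that stage. Relative to day 0, probe set D was 16.2-fold lower at day 7 (4.34 ± 0.63 at day 7, 8.36 ± 0.22 at day 0, SD, n = 3 each, adjusted p 3.5e-04). On probe set F, whose day 7 arrays were under background, the fall was at least 3.54-fold (2.45 ± 0.14 at day 7, 5.82 ± 0.35 at day 0, adjusted p 2.3e-04). Probe set E lay closer to probe set A, with a difference of -1.67 ± 0.47 between day 7 and day 0 that was not called (adjusted p 0.015). Probe set C differed by 0.13 ± 0.26 between day 7 and day 0 (adjusted p 0.95).

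The split between the 2 groups of Foxp1 probe sets was set out after its values had been seen and carries no test. The mean of probe sets A, B and C exceeded that of D, E and F by 3.61 ± 0.39 log2 units at day 0 (SD, n = 3), 3.90 ± 0.64 at day 2 (n = 4), 3.05 ± 0.42 after RA (n = 2), 5.30 ± 0.88 at day 3, 5.62 ± 1.16 at day 4 and 5.94 ± 0.36 at day 7 (n = 3 each). The gaps at days 3, 4 and 7 lay within their spread of one another, and they include values under background, among them all day 7 arrays of probe set F. The gap ran between 4.32 and 6.03 at day 3 against 3.05 and 4.60 at day 2, so that single arrays of these neighbouring stages overlapped. Levels of different probe sets depend on their probes, and only the change of the gap between stages is described here.

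After 8 h of RA, Foxp1 was higher on both arrays than on any day 2 array on 5 of its probe sets (B to F). None of these differences was called (0.434% of all genes were). Probe sets B and C list one source sequence and D, E and F another, so the 5 are not independent. The share of all probe sets that separate in this way was not counted, so nothing is read from this count. The largest difference was on probe set F (1.80 ± 0.56, adjusted p 0.56). This probe set was at 6.94 and 7.81 after RA and at 5.18, 5.72, 5.65 and 5.76 at day 2. On probe set B the RA arrays were at 11.93 and 11.90 and the day 2 arrays at 11.11, 11.29, 11.07 and 10.50 (0.92 ± 0.22, adjusted p 0.21). At day 3 probe sets D, E and F were lower than at day 2, with 3.10, 3.22 and 5.04 on probe set F (-1.79 ± 0.50, adjusted p 0.043), and this difference passed the threshold when replicate 3 of day 3 was left out (adjusted p 0.0053), which leaves day 3 arrays that are both under background.

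The promoter table used holds 3 RefSeq start sites for Foxp1 (build GRCm38.p6, chromosome 6, minus strand), whose upstream windows are shown because the probe sets of this gene diverged. The annotated gene reaches to position 99522746, upstream of all 3 windows, so the start at that end is not among them. Each window holds the 250 bases before a start, printed 5′ to 3′ along the gene, with CG dinucleotides in capitals.
Foxp1 start 1, chr6:99520994-99521243: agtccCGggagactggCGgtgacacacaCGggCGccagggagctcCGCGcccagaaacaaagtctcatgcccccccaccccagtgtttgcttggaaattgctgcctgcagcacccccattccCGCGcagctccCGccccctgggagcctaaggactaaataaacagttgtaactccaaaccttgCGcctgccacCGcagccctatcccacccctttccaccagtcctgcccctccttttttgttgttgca
Foxp1 start 2, chr6:99266516-99266765: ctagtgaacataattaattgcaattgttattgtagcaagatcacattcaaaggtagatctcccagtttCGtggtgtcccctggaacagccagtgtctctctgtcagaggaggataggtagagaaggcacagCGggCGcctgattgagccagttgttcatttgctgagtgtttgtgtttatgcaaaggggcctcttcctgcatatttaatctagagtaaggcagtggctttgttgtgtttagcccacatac
Foxp1 start 3, chr6:99028299-99028548: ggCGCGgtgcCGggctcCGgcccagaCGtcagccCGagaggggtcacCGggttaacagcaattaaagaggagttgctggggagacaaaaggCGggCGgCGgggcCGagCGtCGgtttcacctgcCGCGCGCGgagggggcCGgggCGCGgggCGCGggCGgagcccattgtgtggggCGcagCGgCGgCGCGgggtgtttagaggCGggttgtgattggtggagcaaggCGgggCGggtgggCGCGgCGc
The windows differ in base composition. The most upstream one has 60.8% G and C with 11 CG dinucleotides, the middle one 45.2% with 3, and the most downstream one 74% with 34. Of 7 sequences searched on both strands (AGGTCA, the direct repeats of AGGTCA with 5 and with 2 bases between them known for retinoic acid receptors, the Onecut sequence ATTGAT, the homeodomain sequence TAATTA, the E-box CAGCTG and the octamer ATGCAAAT), only TAATTA occurred, once, in the middle window at position -240 from the start. TAATTA occurs in 4.84% of 32851 promoter windows of this length. Which start the transcripts behind each probe set use was not tested.

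Foxp4, the third forkhead member, which in spinal progenitors represses N-cadherin and promotes the release of cells from the neuroepithelium, was high up to day 4 and low at day 7. On probe set A (1431088_at) the log2 signal was 8.49, 7.66 and 9.32 at day 0, 9.09, 8.52, 9.09 and 9.47 at day 2, 8.93 and 10.18 after RA, 9.36, 8.70 and 10.64 at day 3, 9.40, 8.86 and 10.70 at day 4, and 7.76, 7.12 and 7.06 at day 7. The day 7 arrays lay below all arrays of days 2 to 4 and overlapped with day 0 through 1 array. The difference was -2.34 ± 0.59 between day 7 and day 4 (7.31 ± 0.39 at day 7, 9.65 ± 0.95 at day 4, SD, n = 3 each), or 5.06-fold, and it missed the threshold (adjusted p 0.013). On probe set B (1429719_at) the same difference was -1.79 ± 0.58 (adjusted p 0.046). The probe set A difference was called with dim probe sets left out before the fit (adjusted p 0.0039) with each array centred on its median (adjusted p 0.0079) and with a replicate block over all arrays (-2.84, adjusted p 4.4e-04), which also called probe set B (-2.46, adjusted p 0.0015), and across all alternatives its adjusted p ran up to 0.078. On their brightest probe sets, Foxp4 and Foxp1 had their lowest stage mean at day 7 and Foxp2 its highest. Foxp3, known from regulatory T cells, was under background on all 18 arrays.

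**Figure D4:**
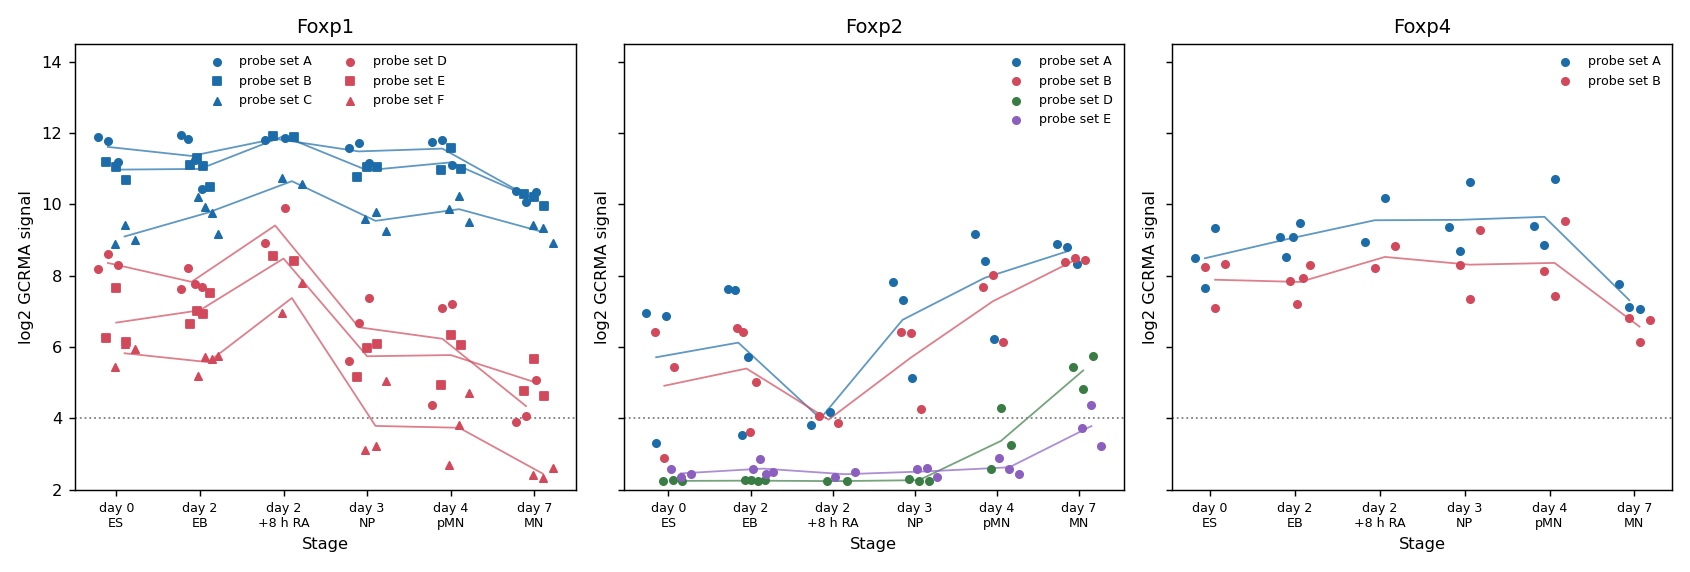
Log2 GCRMA signal (vertical axis) of the brighter probe sets of Foxp1, Foxp2 and Foxp4 on each array (points) by stage (horizontal axis), with lines through the stage means and a dotted line at the background level of 4. For Foxp1, probe sets A to C (blue) stay above those of D to F (red), which are lowest at day 7, with probe set D between 3.91 and 5.06 at day 7, and the 3 day 7 arrays of Foxp4 probe set A lie between 7.06 and 7.76.

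Phox2a, a paired-like homeodomain factor required for the oculomotor and trochlear nuclei and the locus coeruleus, was near background and reached 6.29 at most. Its 1 probe set, probe set A (1418620_at), was at 4.59, 3.83 and 4.03 at day 0, 4.21, 4.24, 5.88 and 4.86 at day 2, 6.29 and 4.88 after RA, 2.97, 3.12 and 3.16 at day 3, 2.97, 3.79 and 3.71 at day 4, and 3.83, 2.90 and 2.72 at day 7. All arrays from day 3 on were under background, and all arrays of day 2 and of RA were over it. At day 3 the mean lay -1.71 ± 0.45 from that of day 2, without overlap and at least 1.74-fold lower, and it was not called (adjusted p 0.032).

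Tbx20, a T-box factor of hindbrain motor neurons and of the heart, varied widely among the arrays of day 7. On probe set B (1453351_at) the signal was 4.87, 5.27 and 5.07 at day 0, lay between 2.24 and 2.30 on every array from day 2 to day 4, and was 7.35, 3.73 and 2.24 on replicates 3, 4 and 5 of day 7. The fall at day 2 relative to day 0 was at least 2.10-fold (2.27 ± 0.02 at day 2, n = 4, and 5.07 ± 0.20 at day 0, n = 3), with an adjusted p of 0.068 in the fit of all arrays and 0.0013 in the fit of these 7 arrays alone. The pooled spread contains the wide scatter of day 7, where 1 array was far above background and 1 at the floor.

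The brightest Tbx20 probe set, probe set A, scattered in a similar way, with 6.26, 4.17 and 3.18 at day 7, 6.17, 2.63 and 3.21 at day 4 and 4.74, 3.40 and 4.52 at day 0. Its difference between day 7 and day 4 was 0.54 ± 1.01 and turned to -0.32 without replicate 3 of day 7. The same order of the day 7 replicates 3, 4 and 5 was seen in Sim1 (8.47, 7.47 and 2.59) and Lmx1b (5.95, 4.12 and 2.43), which mark ventral and dorsal neurons, and the opposite order in the interneuron marker Tal1 (5.32, 6.68 and 9.18), in the glial gene Sox10 (6.88, 9.04 and 11.1), in Olig2 (7.69, 9.09 and 10.3) and in Mnx1 (5.67, 6.84 and 7.44). These genes were chosen after their values were seen. The share of all genes with either order of these 3 arrays was not counted, so nothing is read from the match. Of the 8 spinal interneuron markers, 2 were over background on all day 7 arrays, and the list averaged 3.74 to 4.45 per array. The part of other neurons in the Tbx20 signal was not tested. All 7 cardiac markers, Nkx2-5 and Hand2 included, were under background on all arrays of days 3, 4 and 7, with array means of 2.24 at day 7.

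**Figure D5:**
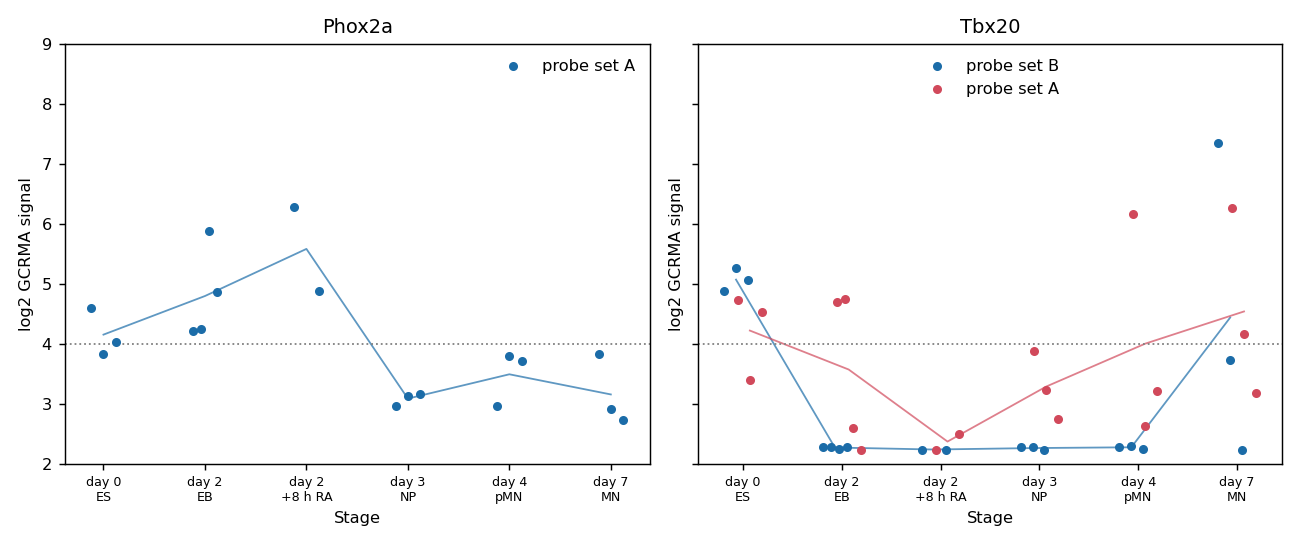
Log2 GCRMA signal (vertical axis) of the Phox2a probe set and of the 2 Tbx20 probe sets that reached background, on each array (points) by stage (horizontal axis), with lines through the stage means and a dotted line at the background level of 4. All Phox2a arrays from day 3 on lie under 4, and the 3 day 7 arrays of Tbx20 probe set B range from 2.24 to 7.35.

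Genes that belong to the same columns and nuclei give the setting of these values, and their counts at day 7 relative to day 0 stand beside 33.1% of all genes called, 17% as higher and 16.4% as lower. The list of median column factors shares Lhx3, Mnx1, Isl1 and Isl2 with the motor neuron markers above, so its counts largely repeat theirs. All 6 of its genes (these, Lhx4 and Mecom) rose at day 7 relative to day 0, with a median log2 fold change of 4.78 on their brightest probe sets. At day 4 relative to day 3, the step in which Onecut2 rose, 3 of them rose, where 0.627% of all genes were called as higher. The 3 were Isl1 (10.81 ± 0.36 at day 4, 2.79 ± 0.51 at day 3, SD, n = 3 each), Lhx4 (9.69 ± 0.80 at day 4, 3.49 ± 0.83 at day 3) and Lhx3 (6.07 ± 0.51 at day 4, 2.37 ± 0.23 at day 3). Of 12 limb and hypaxial factors, 6 rose and 0 fell at day 7 relative to day 4 (10.9% and 8.17% of all genes). Aldh1a2 was among them (4.87 ± 1.20 at day 7, 2.69 ± 0.32 at day 4). Relative to day 0, 5 of the 12 rose and 1 fell. Among these, Lhx1 was at 9.10 ± 1.16 at day 7 and 2.87 ± 0.62 at day 0. The cervical gene Hoxc5 was at 10.84 ± 0.19 at day 7 and 2.27 ± 0.03 at day 0. The limb-level genes Hoxc6 and Hoxc8 were not called in that comparison. Among 7 preganglionic and thoracic factors, Zeb2 rose, Hoxd9 fell and Smad1 was called as higher through a fainter probe set (on its brightest the difference was 0.30, adjusted p 0.47), and the thoracic and lumbar genes Hoxc9, Hoxa9 and Hoxd10 were under background on all arrays.

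Cranial motor neuron factors were measured for 14 of 16 listed genes. At day 7 relative to day 0, 8 rose and 1 fell. At day 7 relative to day 4, 4 rose and 1 fell, where 10.9% of all genes were called as higher and 8.17% as lower. Nkx2-2, which patterns the progenitors next to those of motor neurons, was at 10.65 ± 0.02 at day 7 and 6.62 ± 1.32 at day 4 (SD, n = 3 each, adjusted p 1.7e-05), whereas Nkx2-9 was at 3.75 ± 0.55 at day 7 and 7.15 ± 0.75 at day 4 (adjusted p 2.5e-05). After 8 h of RA, 3 of the 14 rose, all of them hindbrain Hox genes, where 0.434% of all genes were called. Hoxb1 was at least 83.1-fold higher than at day 2 (adjusted p 6.9e-05). Of 9 measured relatives of the members, 3 fell at day 7 relative to day 0, Etv4, Etv5 and Tbx3. Etv5, an ETS factor like Etv1, was at 6.89 ± 0.70 at day 7 and 11.98 ± 0.08 at day 0 (SD, n = 3 each, adjusted p 2.3e-06). The fall was not steady, since Etv5 was at 3.83 ± 1.01 at day 4 and rose from there to day 7 (limma adjusted p 4.4e-04).

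The genes most like each member were sought by Pearson correlation over the 18 arrays among 4191 genes whose stage means differed by at least 2 log2 units and reached 6. Correlations over arrays of a time course share stages and normalization and are given as a description. Onecut2 was most like Mir99ahg (0.96), Foxp2 (0.95) and Rnf182 (0.94), and Foxp2 most like Onecut2 (0.95), the neurotrophin receptor gene Ntrk3 (0.94) and the glutamate receptor gene Gria2 (0.93). Foxp4 was most like Tyms (0.90), which makes thymidylate for DNA synthesis, Col18a1 (0.89) and Umps (0.89), which acts in pyrimidine synthesis. Phox2a was most like Acp5 (0.91), Card19 (0.90) and Nudt8 (0.89), and Tbx20 most like Adgra1 (0.85), Gm31556 (0.84) and Adhfe1 (0.83). The brightest probe sets of Foxp1 and Onecut1 varied by less than 2 log2 units among stages (1.58 and 1.10), so no genes were sought for them.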

How the data were processed

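Affymetrix mouse expression arrays of 18 samples were used. The authors deposited log2 signals per probe set from GCRMA, which corrects each probe for background by its sequence, makes the arrays' distributions equal and summarizes probes over the whole set of arrays, with versions not given in the sources used here. The deposited log2 values were not normalized further. After removal of 64 control probe sets, 45037 of 45101 were tested with limma 3.58.1 under R 4.3.3 (eBayes moderation of a linear model with 6 group means, 18 arrays, 12 residual degrees of freedom, Benjamini-Hochberg adjustment over all probe sets). Genes were called at an adjusted p under 0.01 and at least 2-fold in 1 or more probe sets, and Python 3.11.15 drew the figures. Gene symbols came from GEO's platform annotation (34945 probe sets with 1 symbol, 932 with several, 9160 with none). Some listed genes are not reported here. The procedure was tested on simulated data.

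A log2 signal of 4 was taken as background (55.2% to 56.9% of probe sets per array lay under it), and a fold against a group wholly under it is a bound with that group at 4. Where many arrays lie at the floor, standard errors can be too small. The study's methods describe the arrays of a time point as biological replicates, and the number of arrays limits the precision. The text names all members, up to 4 called genes per list and comparison with the largest change on the brightest probe set, and the 3 genes most like each member. Single markers and other list genes that are named beyond this (Olig2, Lmx1b, Tal1, Smad1, Chat, Hand2, Nkx2-5, Onecut3, Foxp3 and further Hox genes) were named after their values were seen. The members and lists were chosen with earlier results of these data known.

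Same-numbered arrays deviated from their stage means together between days 3 and 2 (correlations over probe sets 0.48, 0.35 and 0.48) and between days 4 and 3 (0.64, 0.42 and 0.75), and the pairing comes from these data and the replicate numbers of the titles.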

Additional observations from a re-analysis of the deposited data

How the results depend on the processing

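No called difference changed direction under any alternative that was fitted. With the arrays of the 2 compared stages alone, 1 member was called at day 2 relative to day 0 (Tbx20, lower) and 0 at day 4 relative to day 3 and at day 7 relative to day 4, while over all genes (higher and lower calls added) 8 calls were left of 79 after RA, 66 of 814 at day 2, 651 of 1403 at day 3, 17 of 258 at day 4, 1292 of 3463 at day 7 relative to day 4 and 3441 of 6075 relative to day 0 (fewer arrays give fewer degrees of freedom). A replicate block within the arrays of days 4 and 3 left 0 members. A replicate block over all arrays kept Onecut2 at day 4 and called 3 members at day 7 relative to day 4 (Tbx20, Foxp2 and Foxp4) and 4 relative to day 0 (Onecut2, Foxp1, Foxp2 and Foxp4), but day 7 shares only 1 number with either stage (deviations correlated at -0.18 and -0.08). The numbers do not pair RA with day 2 (-0.22 and -0.45) or day 2 with day 0 (0.21, -0.20 and -0.13), and over all genes the block left 49 of 79 calls after RA. Within the arrays of days 3 and 2 the block called 0 genes.

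At an adjusted p under 0.05, 3 members were called at day 3 relative to day 2 (Phox2a, Onecut2 and Foxp1), as with array weights, an alternative chosen after seeing the data (3), while over all genes 2065 and 2388 were called under these settings and 1403 otherwise. Averaging the probe sets of a gene, or letting the brightest decide, left 0 members at day 4 relative to day 3 and 0 at day 7 relative to day 4, and the brightest alone left 1 (Foxp1) at day 7 relative to day 0. Quantile normalization left 1 (Foxp2) at day 7 relative to day 4. The causes were not tested.

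Leaving out 1 array gave 0 to 1 members after RA, 0 to 0 at day 2, 0 to 1 at day 3, 1 to 1 at day 4, 1 to 2 at day 7 relative to day 4 and 3 to 4 relative to day 0. The RA call, without replicate 1, was Foxp1 probe set G, which was under background on every array (3.76 on the remaining RA array). The day 7 calls gained were Tbx20 relative to day 4 without replicate 5 of day 7 (adjusted p 0.0053, with all day 4 arrays under background), and, relative to day 0, Onecut1 without replicate 1 of day 0 (1.03, under background) and Tbx20 without replicate 3 of day 7 (adjusted p 1.7e-04, with both remaining day 7 arrays under background). The Foxp1 probe set A fall at day 7 relative to day 0 lost its call in 5 of 6 such fits, whereas probe set F and probe set D kept theirs in all 16 alternatives. The 16 include the average over the gene's probe sets, which fits neither on its own. Leaving out suffixed probe sets removes both, so that alternative is not among the 16. Array signal near background limits Onecut1, Phox2a and Tbx20 most.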
